A study of Mus musculus with 4 samples.

Results

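Forkhead transcription factors are DNA-binding proteins that share a winged-helix domain, and their genes carry the prefix Fox followed by a letter for the subfamily and a number. Their expression was examined in the embryonic mouse mandible with and without a raised dose of Bmp4, which encodes a secreted signal of the bone morphogenetic protein (BMP) class. Members were all genes whose current symbol is Fox with 1 letter and a number, leaving out Foxd3 and Foxm1, and each was read by its brightest probe, the one with the highest mean over the 4 arrays. This gave 36 genes of 16637 named genes on the array, and 49 of its 29922 probes. Family members without a probe under their current symbol were not analysed here.

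Whole mandibles of C57BL/6 embryos at E11.5 were profiled on one-colour arrays labelled with Cy5. The control group was 2 arrays of wild-type mandibles. The other group was 2 arrays of mandibles with conditional Bmp4 overexpression (Bmp4 OE) after 24 hours of doxycycline. The promoter or Cre line that drives the transgene, whether controls received doxycycline, and whether embryos were pooled are all points not given in the sources used here. The labels do not say that arrays of a group came from separate embryos, so p-values measure a spread between arrays that may be technical. Values are normalised log2 intensities. Levels of different probes were not compared, because each probe has its own brightness. "Rose" and "fell" are used for an adjusted p under 0.05 in limma, a linear model fitted to all probes with Benjamini-Hochberg adjustment over all of them. Bmp4 itself read 11.96 and 12.07 in controls and 15.27 and 15.31 in Bmp4 OE, higher on both arrays labelled as overexpressing it. Markers of the mandibular mesenchyme were well measured, with 0 of 8 below the lower quartile of all probes (6.79), and so were 10 measured epithelial markers, with 0 below it.

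In the jaw, several forkhead genes are known from mesenchyme derived from the neural crest. Foxc1 and Foxc2 act there in skull, eye and vessel development, and Foxd1, Foxd2, Foxf1 and Foxf2 respond to Sonic hedgehog made by the oral epithelium. Other members work in epithelium and endoderm, such as the FoxA factors, which open closed chromatin, and Foxe1, which is needed for the thyroid and the palate. Several FoxO, FoxK, FoxN and FoxP factors are found in many cell types and link growth signals, metabolism and differentiation to transcription. Foxn1, Foxn4 and Foxp3 are more restricted. In a whole mandible, fewer cells of a type and less RNA per cell cannot be told apart.

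The regulatory sequence just before the start site is shown for 4 members whose expression changed and which RefSeq promoter windows (GRCm38.p6) cover. Foxf2 and Foxc1 were chosen as adjacent genes that both rose, Foxd1 as the member with the largest fall, and Foxa1 as the member with the largest rise. Each run is the 250 bases before the annotated start, 5′ to 3′ on the gene's own strand. Capitals mark matches to 3 motifs searched on both strands: the forkhead core TGTTTAC, the GC-rich BMP Smad element GGCGCC and the core of the Gli site CCACCCA. The motifs share no matched position in these windows. The Foxf2 window is chr13:31625566-31625815 on the plus strand and the Foxc1 window is chr13:31806396-31806645 on the plus strand. The Foxd1 window is chr13:98353995-98354244 on the plus strand and the Foxa1 window is chr12:57546112-57546361 on the minus strand.
Foxf2: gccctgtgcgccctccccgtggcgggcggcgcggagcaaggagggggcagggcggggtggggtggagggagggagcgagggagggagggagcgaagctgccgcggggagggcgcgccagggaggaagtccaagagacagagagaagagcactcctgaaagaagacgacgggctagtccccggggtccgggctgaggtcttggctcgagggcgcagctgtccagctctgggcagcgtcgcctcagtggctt
Foxc1: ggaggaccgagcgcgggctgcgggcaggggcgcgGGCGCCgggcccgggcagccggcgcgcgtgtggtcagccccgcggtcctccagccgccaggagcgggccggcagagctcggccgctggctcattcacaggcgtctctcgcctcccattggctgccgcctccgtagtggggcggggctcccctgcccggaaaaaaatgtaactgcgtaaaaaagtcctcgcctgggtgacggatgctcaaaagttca
Foxd1: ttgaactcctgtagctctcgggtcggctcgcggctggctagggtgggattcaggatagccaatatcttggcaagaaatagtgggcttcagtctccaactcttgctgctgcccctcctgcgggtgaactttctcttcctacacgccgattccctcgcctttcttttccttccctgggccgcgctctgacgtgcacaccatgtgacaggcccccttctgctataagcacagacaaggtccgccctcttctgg
Foxa1: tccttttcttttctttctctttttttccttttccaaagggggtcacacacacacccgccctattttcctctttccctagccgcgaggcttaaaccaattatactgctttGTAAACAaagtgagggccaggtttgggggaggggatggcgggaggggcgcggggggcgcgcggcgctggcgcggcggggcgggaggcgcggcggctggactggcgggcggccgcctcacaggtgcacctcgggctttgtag
The Foxc1 window held 1 GGCGCC match, starting 216 bases before the start. The Foxa1 window held 1 forkhead core on the opposite strand, 141 to 135 bases before the start, so the letters printed there are its reverse complement. The Foxf2 and Foxd1 windows held 0 matches to these motifs.

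Windows were at hand for 23 of the 36 members, 28 windows in all. GGCGCC was in 5 of the 28 windows (17.9%) against 9.59% of all 32851 windows in the table. The forkhead core was in 1 of 28 (3.57%) against 3.17%, and the Gli core in 1 of 28 (3.57%), that of Foxi1, against 8.11%. The median GC content was 62.4% in forkhead windows and 52.4% in all windows, so the sets differ in base composition. Among the 7 members that rose or fell and had a window, GGCGCC was found for Foxc1, for Foxa2 in 1 of its 3 windows and for Foxp1 in 2 of its 3. Of these, Foxc1 and Foxa2 rose and Foxp1 fell. The remaining window with GGCGCC was that of Foxa3, which held 3 matches, and Foxa3 did not pass. A match is a string of letters and does not show that a protein binds there.

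Of the 36 forkhead genes, 7 rose, 5 fell and 24 did not pass. Of all named genes 16.9% passed in either direction, 7.39% up and 9.54% down, while 33.3% of the forkhead genes passed. The family was chosen with earlier results of these data known, so its share is a description and not a test. The genes that rose were Foxa1, Foxa2, Foxc1, Foxf2, Foxh1, Foxo6 and Foxp2, and those that fell were Foxc2, Foxd1, Foxe1, Foxk2 and Foxp1. Their changes were modest, with log2 fold changes between 0.50 and 0.95 up and between -0.42 and -1.21 down. At the threshold named for the study, which asks for 2-fold and an unadjusted p under 0.05, Foxd1 alone of the 36 passed (2.78%), against 3.29% of all named genes. Foxa1 was added to it without control replicate 2, and Foxa1 and Foxl2 without Bmp4 OE replicate 1, giving 2 and 3 genes. The median absolute log2 fold change was 0.365 over forkhead genes and 0.23 over all named genes, and the signed medians were 0.125 and 0. The arrays of the groups did not overlap for 24 of 36 members (66.7%), against 63.3% of all named genes, so lack of overlap alone is common here. For forkhead genes the median difference between the control arrays was 0.14 and between the Bmp4 OE arrays 0.13, against 0.13 and 0.14 over all named genes. With any 1 array left out, 0 of the 36 passed the adjusted threshold in limma, which then had 1 residual degree of freedom. With all arrays, 18 of the 36 had an unadjusted p under 0.05, against 6063 of the 16637 named genes.

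**Figure D1:**
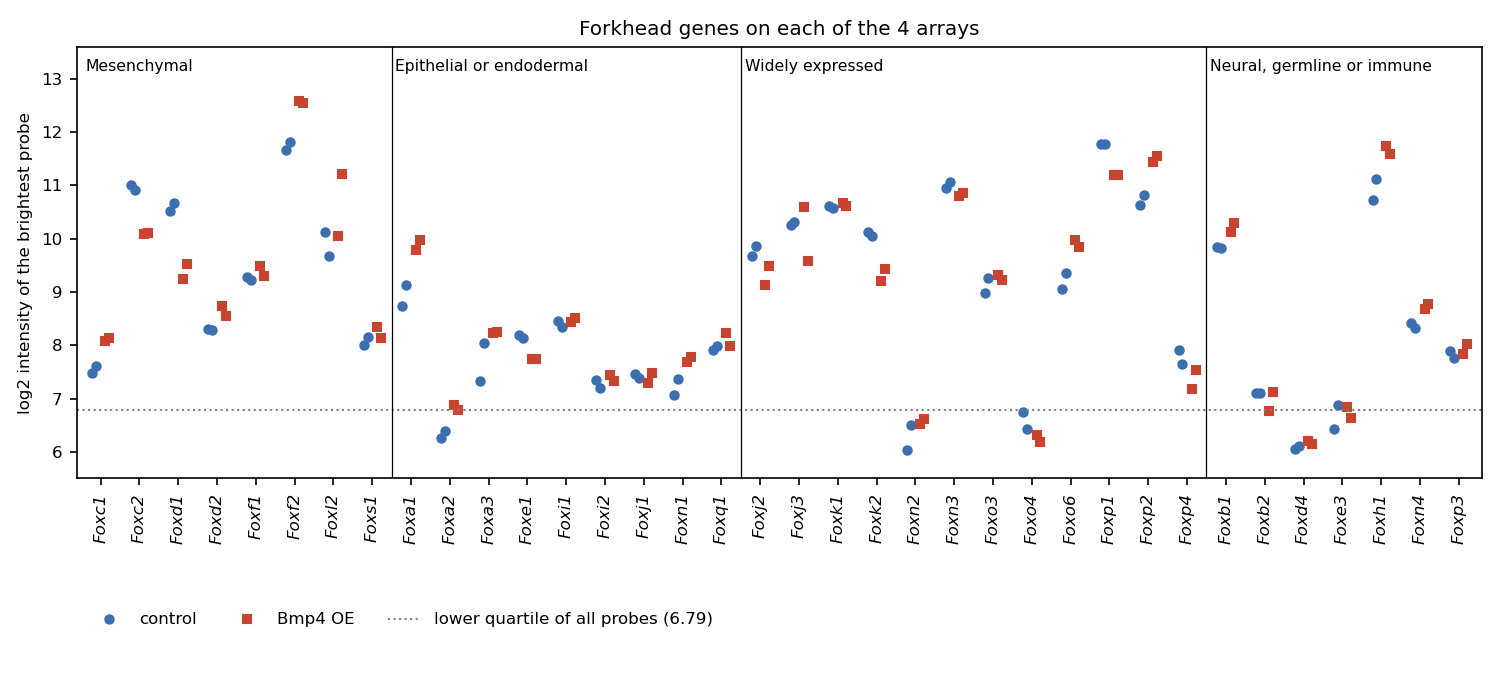
Log2 intensity of the brightest probe of each forkhead gene (y axis) on the 2 control arrays (circles) and the 2 Bmp4 OE arrays (squares). Genes are grouped broadly by where they are best known (x axis), and Foxh1 and Foxe3 are drawn with the neural, germline or immune group. The dotted line is the lower quartile of all probes, 6.79. Foxd1 and Foxc2 lie lower and Foxf2 higher on both Bmp4 OE arrays, and Foxl2 and Foxj3 are split between the Bmp4 OE arrays.

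The mesenchymal genes moved in opposite directions. Of the 8 genes of this group on the array, 2 rose, 2 fell and 4 did not pass. In this small group 50% passed, against 16.9% of all named genes. Foxd1, known from the stroma of the kidney and from facial mesenchyme, read 10.52 and 10.67 in controls and 9.25 and 9.52 in Bmp4 OE. Both Bmp4 OE arrays lay at least 1 log2 unit below both controls. This was a 2.31-fold fall, with a log2 fold change of -1.21 ± 0.14 (SE; limma, adjusted p = 0.0095). Foxd2, its nearest relative, read 8.30 and 8.29 in controls and 8.74 and 8.55 in Bmp4 OE. The groups did not overlap and the values lay on the other side of the controls, but the log2 fold change of 0.35 did not pass (limma, adjusted p = 0.0976).

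Foxc1 and Foxc2, closely related factors with shared roles in mesenchyme and vessels, split. Foxc2 read 11.00 and 10.91 in controls and 10.09 and 10.10 in Bmp4 OE. The Bmp4 OE arrays were almost identical and both low, a 1.82-fold fall with a log2 fold change of -0.86 ± 0.10 (SE; limma, adjusted p = 0.0111). Foxc1 read 7.48 and 7.62 in controls and 8.08 and 8.14 in Bmp4 OE, without overlap. It rose 1.47-fold, with a log2 fold change of 0.56 ± 0.11 (SE; limma, adjusted p = 0.0305). Its second probe read 6.36 and 6.19 against 6.97 and 7.25, and also rose, by 0.84 on the log2 scale (limma, adjusted p = 0.022). The brightest Foxc1 probe lay below the median of all probes (7.95) and the second started below the lower quartile, where the array has little range.

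Foxf2, a mesenchymal factor required for closure of the palate, rose 1.77-fold. It read 11.67 and 11.82 in controls and 12.59 and 12.54 in Bmp4 OE, with both Bmp4 OE arrays above both controls. The log2 fold change was 0.82 ± 0.11 (SE; limma, adjusted p = 0.0137). Foxf1, which shares targets with Foxf2 in gut, lung and face, read 9.29 and 9.23 in controls and 9.49 and 9.31 in Bmp4 OE. Its log2 fold change of 0.14 ± 0.11 (SE) did not pass. The difference between the responses of Foxf1 and Foxf2 was not tested.

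The other mesenchymal genes did not pass. Foxl2, known from the eyelid and the ovary, read 10.12 and 9.68 in controls and 10.05 and 11.21 in Bmp4 OE. The single high array sets its log2 fold change of 0.73, and the Bmp4 OE arrays differed by 1.16, the widest gap of any member. Foxs1, a gene of pericytes and sensory neurons, had a log2 fold change of 0.155.

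Several of these genes lie side by side in the genome. In the RefSeq order of protein-coding genes, Foxq1, Foxf2 and Foxc1 follow each other with 0 other genes between them. Foxf2 and Foxc1 rose, while Foxq1 read 7.92 and 7.98 in controls and 8.23 and 7.98 in Bmp4 OE and did not pass. The genes that flank this run, Hus1b before Foxq1 and Gmds after Foxc1, had log2 fold changes of -0.26 and 0.01, neither past the threshold. In a second run, Foxf1, Mthfsd, Foxc2 and Foxl1 follow each other, and of the 3 measured genes Foxc2 fell, while Foxf1 and Mthfsd, with -0.11, did not pass. Foxd2 lies beside Foxe3, a gene of the lens, which stayed near the lower quartile in both groups.

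**Figure D2:**
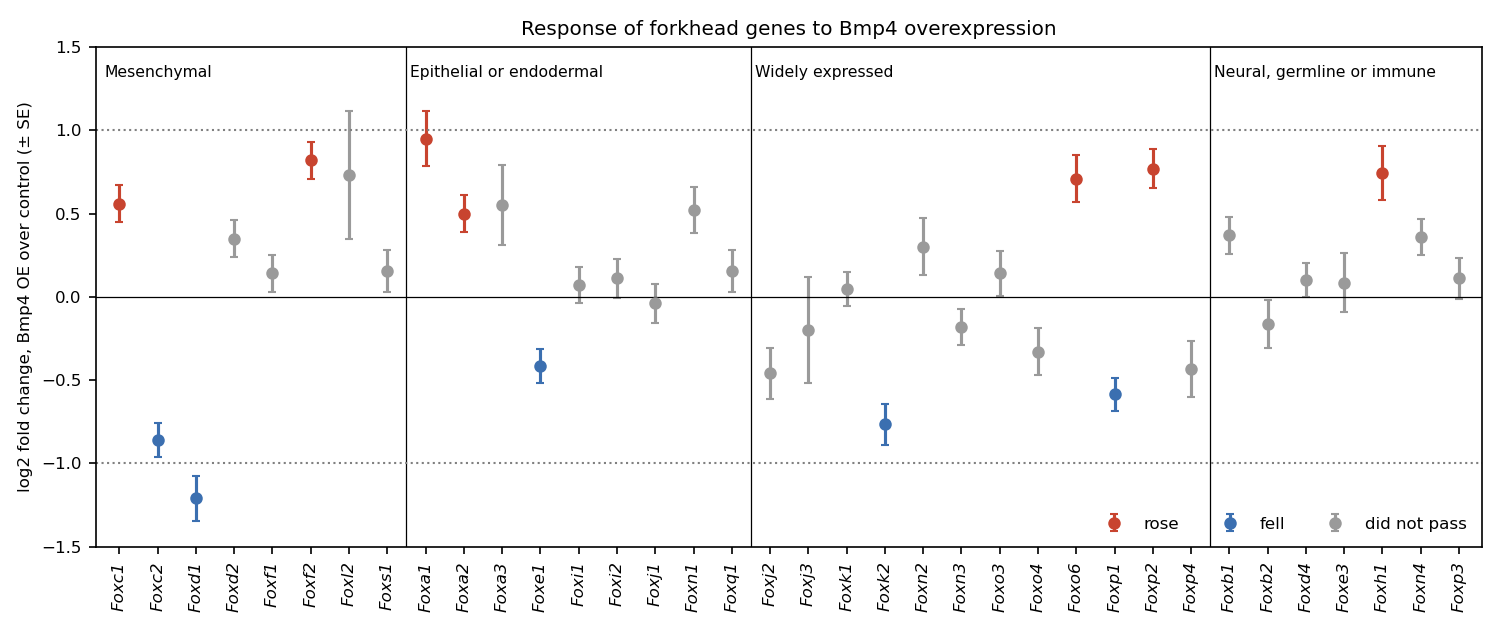
Log2 fold change of each forkhead gene, Bmp4 OE over control (y axis, error bars are standard errors of the limma fit), in the same order of genes (x axis). Red genes rose, blue genes fell and grey genes did not pass. The dotted lines mark a 2-fold change, which Foxd1 alone exceeds.

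Among epithelial and endodermal factors, Foxa1 and Foxa2 rose and Foxe1 fell. Of the 9 on the array, 2 rose, 1 fell and 6 did not pass, so 33.3% passed, against 16.9% of all named genes. Foxa1, a pioneer factor of endoderm and of several epithelia, read 8.73 and 9.13 in controls and 9.79 and 9.97 in Bmp4 OE. The groups did not overlap and the gene rose 1.93-fold, with a log2 fold change of 0.95 ± 0.17 (SE; limma, adjusted p = 0.0237). Foxa2, a factor of endoderm, notochord and floor plate, read 6.26 and 6.40 in controls and 6.87 and 6.79 in Bmp4 OE. Both controls lay below the lower quartile of 6.79, where values are compressed, and the Bmp4 OE values lay at or just above it. The rise of 0.50 (limma, adjusted p = 0.0401) did not pass when 50 was added to the linear values, at 0.33 with an adjusted p of 0.0565. Foxa3, a factor of liver and gut, read 7.32 and 8.05 in controls and 8.23 and 8.24 in Bmp4 OE. Its control arrays differed by 0.73, and its log2 fold change of 0.55 did not pass.

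Foxe1, a gene of thyroid and palate epithelium, read 8.19 and 8.13 in controls and 7.75 and 7.74 in Bmp4 OE. The arrays of each group were close together and the groups did not overlap. The log2 fold change of -0.42 ± 0.10 (SE) passed narrowly (limma, adjusted p = 0.0498) and did not pass with a variance trend (adjusted p = 0.0826). Foxn1, the regulator of thymic epithelium and of hair, read 7.06 and 7.36 in controls and 7.68 and 7.78 in Bmp4 OE. Its log2 fold change of 0.52 did not pass (limma, adjusted p = 0.0602). Foxn1 has 1 probe, so averaging the probes of each gene before the fit left its values and its 0.52 unchanged. It passed in that fit, which covers named genes only (limma, adjusted p = 0.0411), and with a variance trend and robust fitting (limma, adjusted p = 0.0494). The remaining members of the group, Foxi1 of the ear and kidney, Foxi2, Foxj1, the driver of motile cilia, and Foxq1, had log2 fold changes between -0.04 and 0.155, and their groups overlapped.

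Epithelial markers moved in both directions beside these genes. Of 10 measured, 4 rose (Cdh1, Krt8, Krt18 and Cldn6), 2 fell (Krt5 and Krt14) and 4 did not pass. Thus 60% of these markers passed, against 16.9% of all named genes. The summed linear intensity of the 10 markers was 43400 to 45200 in controls and 37600 to 39100 in Bmp4 OE. A sum weights each marker by the brightness of its probe, and Krt14 alone held 42.4% to 65.4% of it on the 4 arrays. The other 9 markers summed to 15700 to 16200 in controls and 21600 to 22300 in Bmp4 OE, so the direction of the sum rests on Krt14. Of 7 measured markers of pharyngeal endoderm, Shh rose, Pax1 and Sox2 fell and 4 did not pass, so 42.9% passed. Their sums were 4120 to 4310 in controls and 3560 to 3710 in Bmp4 OE. Without Sox2, the brightest, they were 2190 to 2270 and 2410 to 2490, again in the other direction. The part of tissue makeup in the changes of Foxa1, Foxa2 and Foxe1 was not tested.

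**Figure D3:**
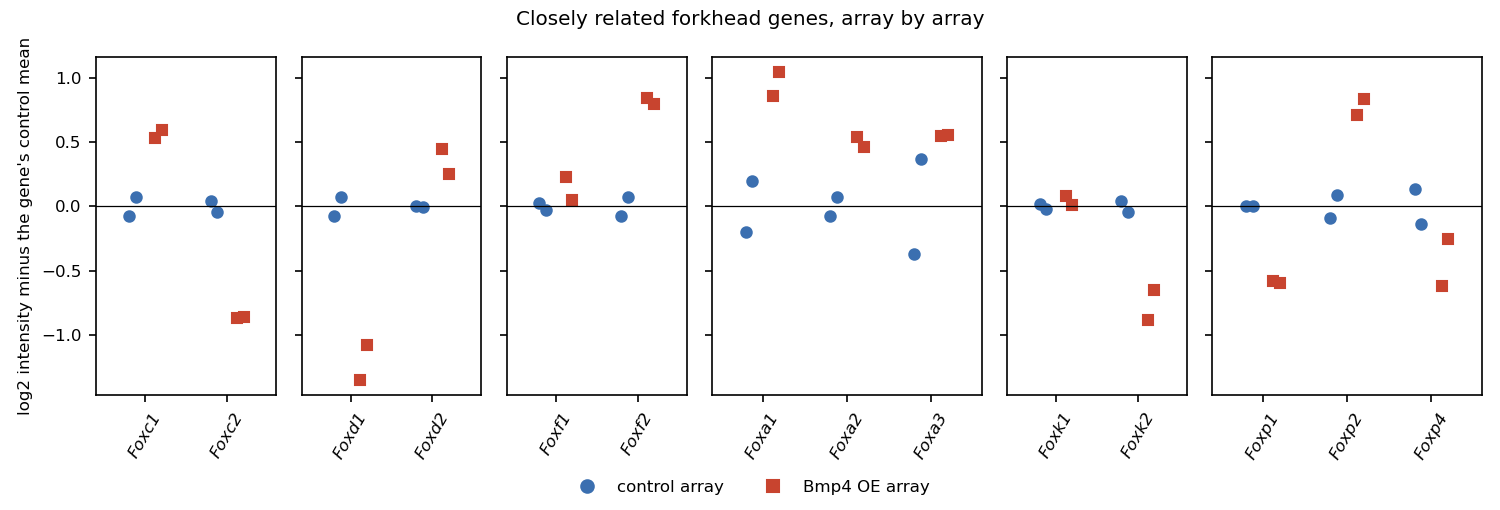
Log2 intensity of closely related forkhead genes minus each gene's own control mean (y axis), with a circle for each of the 2 control arrays and a square for each of the 2 Bmp4 OE arrays. Foxc1 and Foxc2 lie on opposite sides of 0 in Bmp4 OE, as do Foxp1 and Foxp2, while Foxk2 is low and Foxk1 lies within 0.1 of its control mean.

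Widely expressed members were as mixed. Of 12 measured, 2 rose, 2 fell and 8 did not pass, so 33.3% passed, against 16.9% of all named genes. The median log2 fold change was -0.19, against 0 for all named genes. Foxp1 and Foxp2, repressors that can pair with each other, moved apart. Foxp1 read 11.78 and 11.78 in controls and 11.20 and 11.19 in Bmp4 OE, so that arrays of a group differed by at most 0.01. It fell 1.5-fold, with a log2 fold change of -0.59 ± 0.10 (SE; limma, adjusted p = 0.0228). Foxp2 read 10.64 and 10.82 in controls and 11.44 and 11.56 in Bmp4 OE, without overlap. It rose 1.71-fold, with a log2 fold change of 0.77 ± 0.12 (SE; limma, adjusted p = 0.0183). Its 3 probes did not give the same size: the second gave 0.44 (limma, adjusted p = 0.0605) and the dimmest -0.13, and their average gave 0.36, which did not pass (adjusted p = 0.0549). Foxp4, another FoxP repressor, read 7.92 and 7.65 in controls and 7.17 and 7.53 in Bmp4 OE, with a log2 fold change of -0.44 that did not pass.

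Foxk2, which with Foxk1 controls glucose use and represses autophagy genes, fell. It read 10.13 and 10.05 in controls and 9.21 and 9.44 in Bmp4 OE, a 1.70-fold fall with a log2 fold change of -0.77 ± 0.12 (SE; limma, adjusted p = 0.0202). Its second probe read 9.22 and 9.03 against 8.13 and 8.30 and gave -0.91 (limma, adjusted p = 0.0143). Both probes were low on both Bmp4 OE arrays. Foxk1 read 10.62 and 10.58 in controls and 10.68 and 10.61 in Bmp4 OE, with a log2 fold change of 0.05 ± 0.10 (SE). Its second probe gave 0.56 ± 0.22 (SE) with 1 low control array and did not pass.

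The FoxO factors were represented by Foxo3 and Foxo4, which are held in the cytoplasm by insulin and AKT signalling, and by Foxo6. Foxo6 read 9.05 and 9.36 in controls and 9.98 and 9.85 in Bmp4 OE, without overlap. It rose 1.64-fold, with a log2 fold change of 0.71 ± 0.14 (SE; limma, adjusted p = 0.0317). Foxo3 had 0.14 at its brightest probe and -0.30 at the other, which lay below the lower quartile, and neither passed. Foxo4 had -0.33, also below the lower quartile, and did not pass.

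Foxn3, a repressor linked to the cell cycle checkpoint, read 10.95 and 11.07 in controls and 10.80 and 10.86 in Bmp4 OE, and its probes gave log2 fold changes of -0.18 and -0.13. Foxj3 read 10.25 and 10.32 in controls and 10.59 and 9.58 in Bmp4 OE, a split of 1.01 between the latter. Its other 3 probes had log2 fold changes between -0.325 and -0.005. Foxj2 had a log2 fold change of -0.46 and Foxn2, below the lower quartile, one of 0.30. None of these 4 genes passed in limma, where the adjusted p-values of their brightest probes ran from 0.104 for Foxj2 to 0.712 for Foxj3.

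The last group held members best known from the nervous system, germ line or immune cells, and also the lens gene Foxe3 and Foxh1. It gave 1 rise, in Foxh1. Of 7 measured, the other 6 did not pass, so 14.3% passed, against 16.9% of all named genes. Foxh1, the partner of Smad2 and Smad4 in Nodal and activin signalling, read 10.73 and 11.13 in controls and 11.75 and 11.60 in Bmp4 OE. The groups did not overlap, though the controls differed by 0.40. It rose 1.68-fold, with a log2 fold change of 0.75 ± 0.16 (SE; limma, adjusted p = 0.0387). Foxb1, a gene of the hypothalamus and brainstem, read 9.85 and 9.82 in controls and 10.12 and 10.29 in Bmp4 OE, and its log2 fold changes of 0.37 and 0.02 at its probes did not pass. Foxn4, a gene of retinal and spinal interneurons, had 0.36 without overlap and did not pass (limma, adjusted p = 0.0782). Foxb2, Foxd4, Foxe3 and Foxp3, the regulator of regulatory T cells, had log2 fold changes between -0.165 and 0.11.

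Markers of other cell types were read beside the mesenchymal and neural members, in short lists where a single gene moves a share widely. The shares that passed, against 16.9% of all named genes, were 25% of neuronal, 14.3% of endothelial, 50% of mural and 28.6% of forebrain markers. They were 37.5% of crest mesenchyme, 28.6% of macrophage, 28.6% of muscle, 33.3% of erythroid and 0% of Schwann and crest markers. Of 8 measured neuronal markers, Dcx rose and Nefm fell, and the summed linear intensity was 26100 to 36300 in controls and 49800 to 51500 in Bmp4 OE. Elavl3, which did not pass (limma, adjusted p = 0.0552), held 86.8% to 91.3% of this sum, and the other 7 markers summed to 3260 to 3450 and 4500 to 4770. Of 7 endothelial markers, Cldn5 rose and 0 fell, with sums of 7680 to 7720 and 9470 to 9530, and of 5920 to 5970 and 7170 to 7220 without the brightest, Pecam1. Of 6 mural markers, Rgs5 and Kcnj8 rose and Pdgfrb fell, with sums of 5840 to 5910 and 5840 to 6140, and of 2720 to 2840 and 3820 on both Bmp4 OE arrays without the brightest, Pdgfrb. Of 7 forebrain markers, Lhx2 rose, Emx2 fell and 5 did not pass, with sums of 3590 to 4350 and 6400 to 6760 that turn to 787 to 886 and 633 to 731 without Lhx2. Of 8 markers of crest mesenchyme, Prrx2 and Msx1 rose and Twist1 fell, with sums of 65800 to 66100 and 72200 to 72900 that turn to 49900 to 50400 and 40500 to 40800 without Msx1. Of 7 macrophage markers, C1qa and C1qb rose, with sums of 2470 to 2620 and 3750 to 3900 (1500 on both controls and 2200 to 2550 without Fcer1g, the brightest). Of 7 muscle markers, Actc1 and Myl4 rose, with sums of 4770 to 5200 and 6710 to 6870 (2140 to 2310 and 2890 to 3100 without Actc1). Of 6 erythroid markers, Alas2 and Klf1 fell, with sums of 150000 to 153000 and 143000 to 145000. The globin genes Hbb-y and Hba-x lay within 0.15 of the maximum of 16 on every array and could not show a rise, and the other 4 summed to 22400 to 22500 and 15600 to 16100. Of 3 measured Schwann and crest markers 0 passed in limma, with 1 at an unadjusted p under 0.05 and sums of 1160 to 1250 and 866 to 1040, or 375 to 378 and 375 to 414 without Sox10. The part of these cell types in the forkhead changes was not tested.

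**Figure D4:**
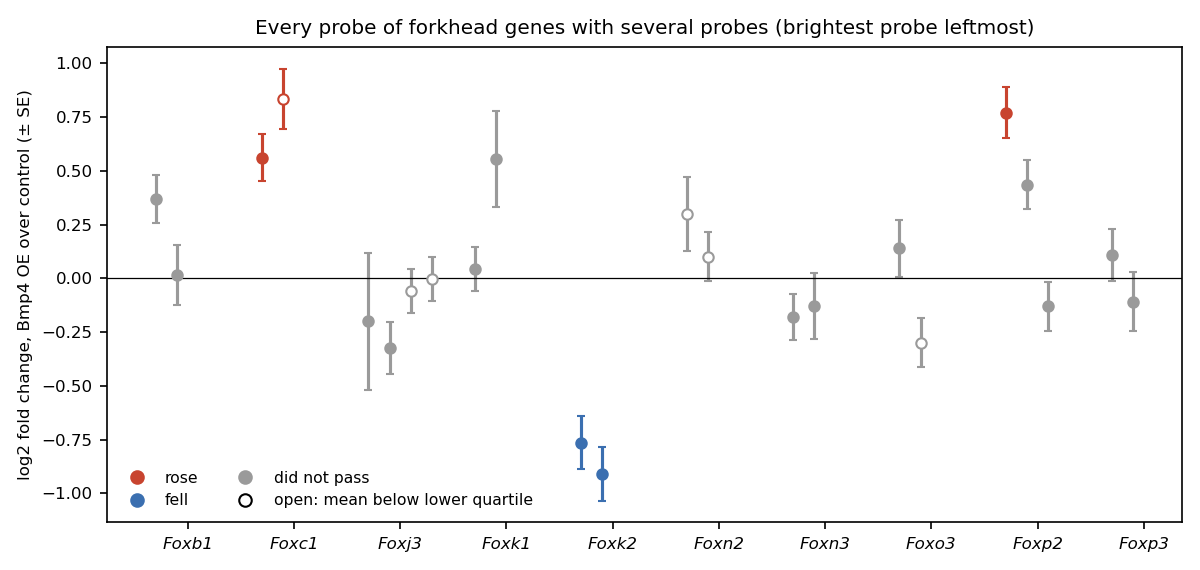
Log2 fold change, Bmp4 OE over control (y axis, error bars are standard errors of the limma fit), of every probe of the 10 forkhead genes with several probes (x axis, brightest probe leftmost). Red probes rose, blue fell, grey did not pass, and open symbols have a mean below the lower quartile. Both Foxc1 probes lie above 0 and both Foxk2 probes below it, while the Foxp2 probes spread from 0.77 to -0.13.

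Of the 36 members, 10 had several probes. Among those that passed, Foxc1 and Foxk2 had a second probe that also passed in the same direction, and Foxp2 had none that passed. The other 9 genes that rose or fell rest on 1 probe each, and which part of the transcript or which related gene a probe reads is not known here.

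Genes that work with forkhead factors were read from 5 lists. The first held Sonic hedgehog, its receptors, and the Gli effectors with their regulators. It also held growth factor, receptor and antagonist genes and the transcription factor gene Osr2, listed for the Foxf1 and Foxf2 circuit of the palate. Of 17 measured, 2 rose, 6 fell and 9 did not pass, and the median log2 fold change was -0.10 against 0 for all named genes. The share of this list that passed was 47.1%, against 16.9% of all named genes. The list was chosen with earlier results of these data known, so this share is a description and not a test. The ligand gene Shh read 9.28 and 9.57 in controls and 10.25 and 10.15 in Bmp4 OE and rose 1.71-fold. For Ptch1, the receptor and itself a Hedgehog target, the log2 fold change of 0.44 missed the threshold (limma, adjusted p = 0.0777). Gli1, another direct target, had -0.08. Hhip, a further direct target, fell by 0.48, so none of these 3 targets passed as higher. Fgf18, which Foxf1 and Foxf2 are known to restrain in the palate, read 10.02 and 10.21 in controls and 9.65 and 9.56 in Bmp4 OE and fell 1.42-fold. The largest changes in this list were the falls of Osr2, Sfrp1 and Fgf10, with log2 fold changes of -3.68, -1.59 and -1.35.

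Of 17 measured regulators of FoxO factors, in the insulin, PI3K and AKT chain and outside it, 0 rose, 2 fell and 15 did not pass. The share of these regulators that passed was 11.8%, against 16.9% of all named genes. Igf2 lay at the top of the scale on all arrays, where a rise cannot be measured. The kinase gene Akt1, whose product keeps Foxo3 and Foxo4 out of the nucleus, fell by 0.74 on the log2 scale. Skp2, which lies outside that chain and targets Foxo1 for degradation, fell with -0.52. Of 19 measured FoxO targets, 3 rose, 0 fell and 16 did not pass. Of the 16, Cdkn1c lay at the top of the scale and 3 lay below the lower quartile on all arrays, where changes are compressed. Txnip, an inhibitor of thioredoxin and glucose uptake, rose 3.02-fold from 10.86 and 10.84 to 12.46 and 12.43. The cell cycle inhibitor gene Cdkn1a rose 1.95-fold and Ccng2, a cyclin of quiescent cells, 1.66-fold. The share of targets that passed, 15.8%, was close to the 16.9% of all named genes, and the median log2 fold change was 0.015.

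Among partners of Foxh1 and genes of motile cilia, the programme of Foxj1, few or no genes passed. Of 12 measured ligands, receptors and Smads of the Foxh1 list, 0 passed in limma, and 4 had an unadjusted p under 0.05. Their median log2 fold change was 0.195, against 0 for all named genes, with 9 positive and 3 negative. The largest were 0.54 for the ligand gene Gdf3 and 0.46 for Smad3. Smad2 and Smad4, with which Foxh1 binds DNA, had log2 fold changes of -0.215 and 0.225. For its part, the receptor gene Acvr1b had 0.38, and Lefty2, a feedback inhibitor of Nodal, 0.45 from below the lower quartile (limma, adjusted p = 0.0598). Of 12 measured cilia genes, 0 rose and 1 fell, the filament gene Tekt2, with -0.95 (limma, adjusted p = 0.014). The shares of the Foxh1 and cilia lists that passed were 0% and 8.33%, against 16.9% of all named genes. Foxj1 itself read 7.46 and 7.39 in controls and 7.29 and 7.48 in Bmp4 OE, with overlap.

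**Figure D5:**
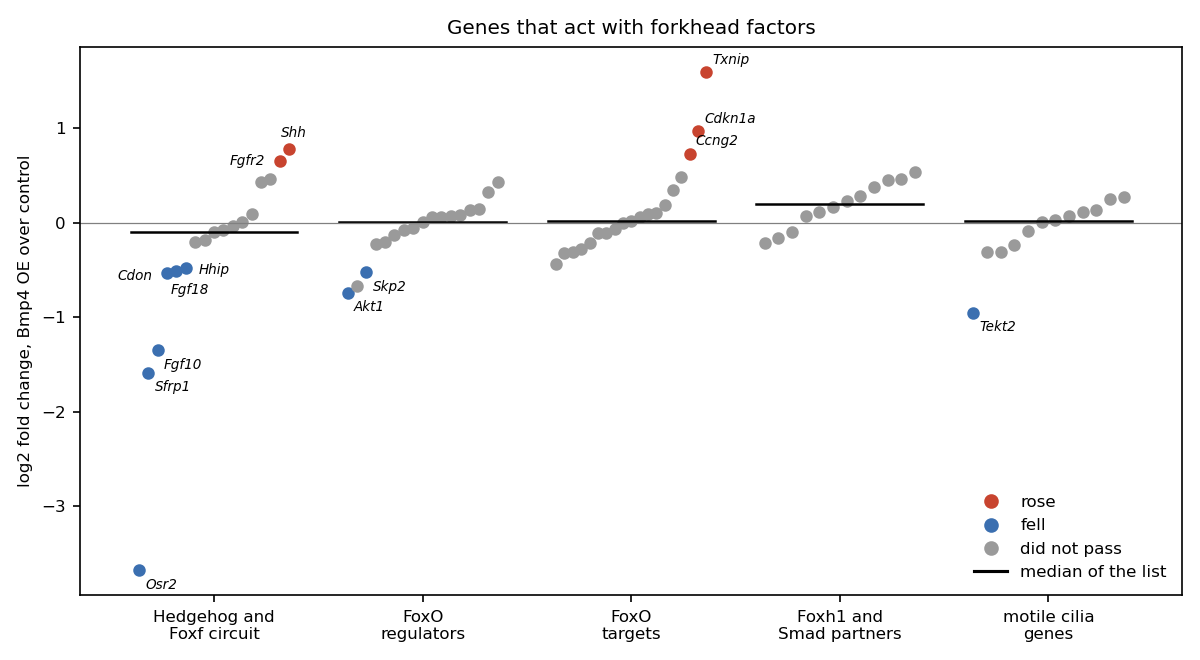
Log2 fold change, Bmp4 OE over control (y axis), of every measured gene in 5 lists of genes that act with forkhead factors (x axis). Red genes rose, blue genes fell, grey genes did not pass, and the black bar is the median of each list. The Hedgehog and Foxf list spans from -3.68 (Osr2) to 0.78 (Shh), while the Foxh1 list stays between -0.215 and 0.54.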

How the data were processed

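Total RNA was amplified with aminoallyl nucleotides and dyed with Cy5, per the labels' protocols. The authors deposited 1 log2 intensity per probe and array, for 29922 probes on 4 arrays with 0 missing values. The 4 columns have identical sorted values (largest difference 0), so the deposited log2 values were quantile-normalised, and a shift shared by most genes would be hidden. Values near the maximum of 16 and below 6.79 are compressed. For scanner, background correction and software, the answer is not given in the sources used here. Depth does not apply to arrays, and their number limits the precision.

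Probes were named from the platform annotation: 21020 had 1 gene symbol, 8902 had none and 0 named several genes. Among named probes 17558 symbols were current, 3410 were synonyms replaced from the RefSeq table (GRCm38.p6) and 52 had no match. All probes were fitted with limma 3.58.1 in R 4.3.3 (lmFit, eBayes, two-sided, no filter, no covariate, 2 residual degrees of freedom). Samples were grouped by their titles. With 2 arrays in each group, the smallest p of an exact permutation test is 0.333. The fit was tested on simulated data. The members and the lists were chosen with earlier results of these data known. All members may be named. Array values are given for those past a threshold, those with a mean above the upper quartile, and, chosen after their values were seen, their close relatives and Foxn1, Foxq1 and Foxj1. Of the other lists, up to 4 genes with the smallest p, plus Shh, Ptch1, Gli1 and Fgf18, were to be named. The further genes named from lists that passed, Acvr1b, Gdf3, Lefty2, Smad2, Smad3 and Smad4 were chosen after their values were seen. Replicate numbers do not pair the arrays by any label, and same-numbered arrays deviated with a correlation of -0.0711 across probes.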

Additional observations from a re-analysis of the deposited data

How the results depend on the processing

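The counts of 7 higher and 5 lower genes and of 1 gene past the study threshold kept within 1.5 times in the following settings. These were an offset of 50 added before the log2, filters on probes dimmer than the lower quartile or the median, and a variance trend. Further ones were robust fitting with that trend, averaging of probes and the probe brightest in controls. Median centring and renewed quantile normalisation could change nothing, because the deposited columns already hold identical sorted values. The filter at the median left out Foxa2 and Foxc1, and that at the lower quartile Foxa2. With the replicate block, 0 genes rose and 0 fell, with 1 residual degree of freedom, and the adjusted p of the 12 genes lay between 0.0745 and 0.118; the study threshold still gave 1 gene. The numbers do not pair the arrays. Leaving out 1 array gave 0 higher and 0 lower genes, and 1 to 3 genes past the study threshold: Foxa1 was added without control replicate 2, and Foxa1 and Foxl2 without Bmp4 OE replicate 1. All 12 genes kept their direction in every setting run. Signs turned for 5 genes that did not pass, and Foxp3 reached 0. With probes averaged, Foxo3 went to -0.08 and Foxp3 to 0. With 1 array left out, the log2 fold changes ran from -0.34 to 0.01 for Foxb2, from -0.135 to 0.305 for Foxe3, from -0.135 to 0.055 for Foxj1, from -0.705 to 0.305 for Foxj3 and from 0 to 0.28 for Foxo3. The signal of Foxa2, Foxd4, Foxe3, Foxn2 and Foxo4, whose means lay below the lower quartile, limits what can be read from them.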
